A study of Manis javanica with 3 samples.

Results

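Of the 24220 genes with an expression value in 3 tissues of the Malayan pangolin (*Manis javanica*, a scale-covered mammal that feeds on ants and termites), 2133 (8.81%) carried no entry in any of 7 databases, among them the protein collections NR, TrEMBL and Swiss-Prot and the functional catalogues GO and KEGG. The rule for a member was that absence alone: a gene of the expression files without a row in the deposited annotation. No expression threshold was set, but a new gene is in these files only because reads joined it. The annotation holds 22538 rows, of which 22087 belong to genes of the expression files and 451 do not. Every row had an entry in at least 1 database, so all members are genes without a row. The members comprise 1914 new genes, which the study joined from reads outside the known gene models, and 219 genes that carry a reference gene ID. They were set beside 1459 new genes that have an annotation and 20628 annotated reference genes. New gene IDs begin with Manis_javanica_, which is left out below.

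One adult female, a wild animal that died during rescue with ants in its stomach, gave all RNA: liver, salivary glands and small intestine were sampled. There is 1 library per tissue, so a value below has no replicate check, no test between tissues was made, and a difference between libraries cannot be told apart from a difference between these pieces of tissue. Intervals cover counting error only. In such bulk samples, fewer cells of a type and less RNA per cell cannot be told apart. Library totals were 10158924 fragments in small intestine, 8318686 in salivary glands and 14568778 in liver. The tissue names were compared with marker genes. All 12 hepatocyte markers found were above an FPKM (a count of fragments corrected for length and depth) of 1 in the liver library, with a summed FPKM of 46005 against 222 and 195 in the small intestine and salivary gland libraries. Of these markers TTR was higher in the salivary gland library (53.1) than in the liver library (35.1). The library labelled small intestine was high in stomach markers: 8 of the 11 found were above an FPKM of 1, and their sum was 59089, against 52.0 in salivary glands and 5.02 in liver. CHIA alone made up 43108 of that sum, and GIF and LIPF stayed below an FPKM of 1. The 11 enterocyte markers found summed to 94.5 in it, less than the 166 of the liver library, and FABP2, LCT and CDX1 were listed at 0, as was the stomach marker GAST. Of the liver sum, SI alone made up 114, beside 0.0682 in the library labelled small intestine. Above an FPKM of 1 were 5 of these 11 markers in small intestine, 4 in salivary glands and 6 in liver. LGALS4 (45.9, 8.22 and 15.5 in that order), SLC5A1 and SLC15A1 were highest in small intestine, whereas ALPI, ANPEP, CDX1, RBP2, SI and VIL1 were not. VIL1 had 24.0, 25.7 and 21.2. Of 12 salivary gland markers 7 were found, with a summed FPKM of 202 in the salivary gland library, 67.5 in small intestine and 66.9 in the liver library. AQP5, LTF and PIP were highest in the salivary gland library, whereas CA6, LYZ, KLK1 and LPO were not. Each value below for the small intestine library belongs to this sample with its stomach markers, and the part they play in it was not tested.

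A gene can lack an annotation for several known reasons. The search behind the annotation translates a transcript and looks for similar proteins, so long noncoding RNAs, untranslated ends of genes that were cut off from their coding part, and short or fast-evolving proteins are commonly left without a match. Genes of secreted proteins of saliva and milk are a known example of fast evolution: the caseins and several salivary proteins lie in the same cluster in mammals and change rapidly between species. Overlapping transcripts from the opposite strand, known as antisense RNAs, are another usual source of genes without a protein match.

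Sequences were at hand for 161 new genes, 120 of them without annotation, and each was as long as the length listed for its gene. These are the part of the new genes in the copy used and not a sample drawn from all members. The motif and frame values below describe them only. The ends of the 5 of these members with the highest FPKM in any library are shown, since an AATAAA or ATTAAA, the motifs read by the machinery that cuts and polyadenylates messenger RNA, would mark where a transcript may end. Each line is the last 100 bases 5′ to 3′ on the listed strand, with those motifs in capitals. The loci are NW_016527303.1:174251-199023 for newGene_24 (plus strand), NW_016528144.1:524083-527131 for newGene_598 (minus strand), NW_016527375.1:138767-139410 for newGene_104 (plus strand), NW_016528144.1:289891-297637 for newGene_596 (plus strand) and NW_016527315.1:115028-128675 for newGene_38 (plus strand), on scaffolds of a genome build that the sources do not name.
newGene_24: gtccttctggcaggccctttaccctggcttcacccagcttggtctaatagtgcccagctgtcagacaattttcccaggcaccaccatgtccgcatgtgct
newGene_598: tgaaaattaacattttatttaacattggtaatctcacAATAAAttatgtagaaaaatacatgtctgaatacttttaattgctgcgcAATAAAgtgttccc
newGene_104: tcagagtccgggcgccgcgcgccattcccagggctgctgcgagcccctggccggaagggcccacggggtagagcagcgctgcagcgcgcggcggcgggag
newGene_596: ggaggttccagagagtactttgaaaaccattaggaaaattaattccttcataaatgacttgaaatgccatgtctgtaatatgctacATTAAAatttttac
newGene_38: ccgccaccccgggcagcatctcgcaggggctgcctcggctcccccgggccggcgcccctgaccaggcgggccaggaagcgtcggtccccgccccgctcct

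Of these ends, newGene_598 carried AATAAA close to its last base and a further one upstream, newGene_596 carried ATTAAA, and the other three carried neither. Searched on the listed strand only, either motif was found in the last 60 bases of 16 of the 120 members (13.3%) and of 14 of the 41 annotated new genes (34.1%). In the first 60 bases, where the motifs have no such role, the shares were 3.33% and 2.44%. Where neither motif is present, these letters are simply not in this window.

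The coding potential of the same 120 members was described by the longest open reading frame from ATG to a stop on either strand. Its median was 81.5 codons (range 14 to 222), beside 91 codons in the 41 annotated new genes, and 42 members (35.0%) had a frame of at least 100 codons, beside 19 of the annotated new genes (46.3%). The longest frame lay on the listed strand in 57 of the 120. The median length was 1086 bases and the median GC content 48.8%, against 1411 bases and 46.2%. The longest frames are shown for newGene_24, newGene_598 and newGene_104, the members with a sequence of highest deposited FPKM in any library. Computed as the count over the listed length, their highest FPKM were 52.9, 130 and 48.2, which puts newGene_598 before newGene_24. The frame of newGene_104 is printed whole (69 codons, listed strand, bases 350 to 559). So is that of newGene_598 (88 codons, opposite strand, bases 413 to 679 counted from the 5′ end of that strand). For newGene_24 the first 300 bases of its frame of 205 codons on the opposite strand are printed. Capitals mark the ATG and, where it is reached, the stop.
newGene_104 frame: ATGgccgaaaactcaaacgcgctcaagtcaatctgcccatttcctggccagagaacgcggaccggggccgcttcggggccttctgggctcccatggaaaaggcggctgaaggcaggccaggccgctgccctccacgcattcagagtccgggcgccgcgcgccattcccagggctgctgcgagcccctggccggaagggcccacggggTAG
newGene_598 frame: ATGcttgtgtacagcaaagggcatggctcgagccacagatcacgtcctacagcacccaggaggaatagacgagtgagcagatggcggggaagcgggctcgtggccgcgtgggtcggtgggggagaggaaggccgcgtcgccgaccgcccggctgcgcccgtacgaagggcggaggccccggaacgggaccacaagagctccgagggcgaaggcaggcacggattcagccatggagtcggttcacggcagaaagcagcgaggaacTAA
newGene_24 frame: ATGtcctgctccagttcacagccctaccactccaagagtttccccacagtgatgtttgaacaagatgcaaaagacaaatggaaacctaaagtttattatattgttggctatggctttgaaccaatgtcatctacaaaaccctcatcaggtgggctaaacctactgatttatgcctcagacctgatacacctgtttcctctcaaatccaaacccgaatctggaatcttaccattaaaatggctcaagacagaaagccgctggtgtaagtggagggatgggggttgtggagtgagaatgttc

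A frame in a deposited sequence is a description and not evidence of a protein. All 3 frames belong to genes that no database entry matched, and for newGene_598 and newGene_24 the longest frame runs against the strand on which the gene is listed.

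The salivary gland library held by far the largest share of counts on genes without annotation. They took up 70077 of the counts of the small intestine library (0.690%, 95% Wilson interval 0.685 to 0.695%), 798728 of the salivary gland library (9.60%, 9.58 to 9.62%) and 255426 of the liver library (1.75%, 1.75 to 1.76%). Annotated new genes, which were joined from reads in the same way, took up 0.961%, 2.12% and 1.48%. As a share of the summed FPKM, members reached 0.971% in small intestine, 20.9% in salivary glands and 1.48% in liver. The salivary gland value rested on a pair of genes: gene21524 and newGene_4003 together held most of it, and all other members held 1.76% of the library's counts. With both left out of the total as well, the share was 1.91%, close to the whole liver value. The 10 most counted members held 91.3% of member counts in the salivary gland library, 52.1% in the liver library and 19.6% in small intestine, so the small intestine library had no dominating member. Its most counted member, newGene_5392, held 2.88% of its member counts.

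**Figure D1:**
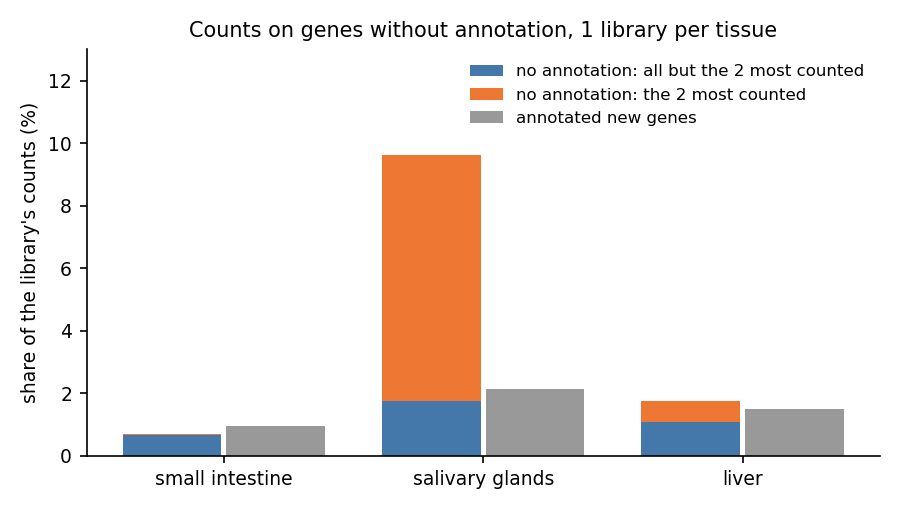
Share of each library's counts (percent, vertical axis) on genes without annotation, split into the 2 most counted members of that library (orange) and all others (blue), beside annotated new genes (grey). Bars start at 0 and there is 1 library per tissue, so there are no error bars; without its 2 most counted members the salivary gland bar drops from 9.60% to 1.76%, while the grey bars lie between 0.961% and 2.12%.

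Members were shorter than annotated reference genes, and their highest FPKM had a lower median. Their median length was 1219 bases, beside 1132 in annotated new genes and 2490 in annotated reference genes. Genomic spans exceeded the listed length, as they do where introns are removed, in 2122 members and in all 1914 of the new genes. No read was counted for 189 members, and 1550 had at least 10 fragments in a library. Only 2 were no longer than 200 bases, the length above which the study searched the databases. An FPKM above 1 was reached in at least 1 library by 1404 members (65.8%), in all libraries by 397 (18.6%) and in a single library by 719. Annotated reference genes passed this threshold in at least 1 library as often (68.5%) but in all libraries more often (10309 of 20628), and annotated new genes did so in 85.9% (any) and 44.8% (all). By library, 751 members passed in small intestine, 850 in salivary glands and 885 in liver, of which 161, 229 and 329 passed in that library only. Over all genes the numbers were 14392, 13631 and 13810, with 1161, 689 and 1256 in that library only. By all genes that passed, the small intestine library was thus highest over all genes and lowest among members. By genes that passed in that library only, the liver library was highest in both, and the small intestine library was lowest among members only. The median of the highest FPKM of a member was 1.76, against 4.14 in annotated new genes and 4.80 in annotated reference genes. An FPKM above 100 was reached by 22 members (1.03%), 3.02% of annotated new genes and 4.16% of annotated reference genes.

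Taken over all counts, members were more often concentrated in 1 library than annotated genes. The shares by range of counts are given further below. A gene is called led by a library here where its CPM (counts set to a common library size), scaled by TMM, were at least 4-fold those of each other library with at least 10 fragments there, counts under 3 being set to 3. Of the 1550 members with at least 10 fragments in a library, 225 were led by the liver library (14.5%), where the share over all 18037 genes with that many fragments was 7.38%. A further 168 members were led by the salivary gland library (10.8%), beside 3.44% of all such genes. The small intestine library led 117 members (7.55%), close to its 6.76% over all such genes. Altogether 510 members (32.9%) were led by a library, against 20.6% of annotated new genes and 15.8% of annotated reference genes. Among annotated new genes the liver library led 11.3%, the salivary gland library 3.66% and the small intestine library 5.61%. The gap between members and annotated new genes was thus widest, in ratio, for the salivary gland library.

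**Figure D2:**
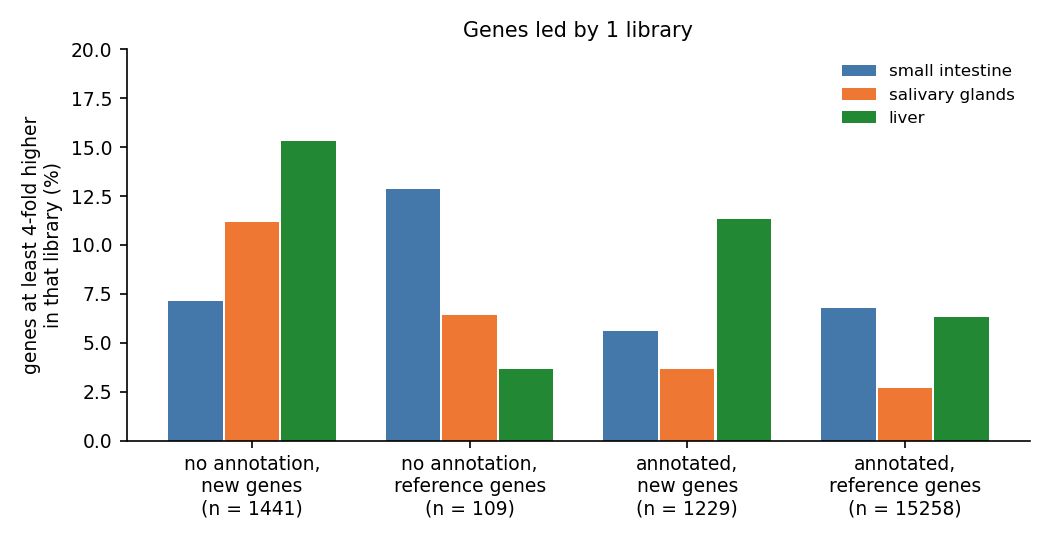
Percent of genes with at least 10 fragments that were at least 4-fold higher in the small intestine (blue), salivary gland (orange) or liver (green) library than in each other library, for 4 classes of gene with their number under each group. Bars start at 0; unannotated new genes show 7.15%, 11.2% and 15.3% in that order, and the 109 unannotated reference genes show the opposite order, 12.8%, 6.42% and 3.67%.

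New and reference genes without annotation differed in which library led them. Of the 109 unannotated reference genes with enough fragments, 14 were led by the small intestine library, 7 by the salivary gland library and 4 by the liver library. Of the 1441 unannotated new genes, the numbers were 103, 161 and 221. A new gene exists in these files only because reads joined it, and the study also assembled reads of a further liver data set, so which new genes were available to be counted depends on those reads. The call also depends on depth: the fewest fragments that can give a call were 11 in small intestine, 14 in salivary glands and 21 in liver. The share of members led by the liver library was 5.60% where the highest count was at most 30, then 102 of 510 members up to 100, 18.7% up to 300, 31.8% up to 1000 and 37.8% above 1000. Annotated new genes gave 5.66%, 11.1%, 14.9%, 16.4% and 29.3% over the same ranges, and annotated reference genes with over 1000 counts 10.8%. The share thus went up with the count in annotated new genes as well. Members led by the salivary gland library showed no such order, with 10.5%, 12.4%, 9.35%, 5.88% and 15.6% over the same ranges of counts. For annotated new genes these shares were 3.08%, 3.93%, 3.62%, 3.45% and 7.32%. For annotated reference genes they were 4.11%, 3.63%, 2.46%, 1.72% and 2.73%. For the small intestine library the member shares were 8.76%, 5.69%, 6.54%, 8.24% and 13.3%. Annotated new genes gave 5.91%, 4.91%, 5.80%, 6.03% and 7.32% there. Annotated reference genes gave 14.8%, 9.51%, 6.31%, 4.09% and 4.42%, above members where the highest count was at most 100.

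Among members, gene21524 and newGene_4003 had the most counts in the salivary gland library. Of all genes there, the annotated gene14993 had the most, 7.94% of the counts. The gene newGene_4003 (NW_016534235.1:156818-195904, minus strand, listed length 667 bases) had 572 counts in small intestine, 304045 in salivary glands and 33 in liver. Its FPKM was 176, 80008 and 7.47, which placed it first of all genes of the salivary gland library, where it held 3.65% of the counts (3.64 to 3.67%). The scaled level in the salivary gland library was 473-fold that of the small intestine library and 13872-fold that of the liver library. The gene gene21524 (NW_016550117.1:4-31582, minus strand, listed length 6092 bases) had 566 counts in small intestine, 348286 in salivary glands and 22 in liver. It held 4.19% of the salivary gland counts (4.17 to 4.20%), the most of any member. Its FPKM was 78.4, 36170 and 1.43, and it had rank 3 of all genes in salivary glands. The deposited FPKM of such genes is not the count over the listed length: computed that way in salivary glands, newGene_4003 had 54797 and rank 2 and gene21524 had 6873 and rank 3.

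Their levels in small intestine were alike as a share of the salivary gland level: 0.183% for gene21524 and 0.212% for newGene_4003. Among the 7 annotated genes led by the salivary gland library with at least 10000 counts there, the median of the same share was 0.183% (range 0.148 to 17.5%). How the small intestine counts of these genes arose was not tested.

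Around newGene_4003 the scaffold held casein genes with few reads. The nearest annotated genes were gene10325, an uncharacterized protein 54875 bases on the low side with 3 salivary gland counts, and gene10329, annotated as beta-casein, a milk protein, 36543 bases on the high side with 2, 7 and 0 counts in intestine, salivary gland and liver. Alpha-S1-casein (CSN1S1, gene10330) followed with 1, 13 and 0. Between newGene_4003 and beta-casein lay newGene_4004, also without annotation and on the same strand, whose locus overlaps that of newGene_4003 and which had 2, 192 and 51 counts. So on this scaffold the abundant RNA was listed at newGene_4003 and not at its casein neighbours, whose FPKM in the salivary gland library was 0.606 and 2.91. The gene gene21524 was the only gene on its scaffold, so it has no neighbour to describe.

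**Figure D3:**
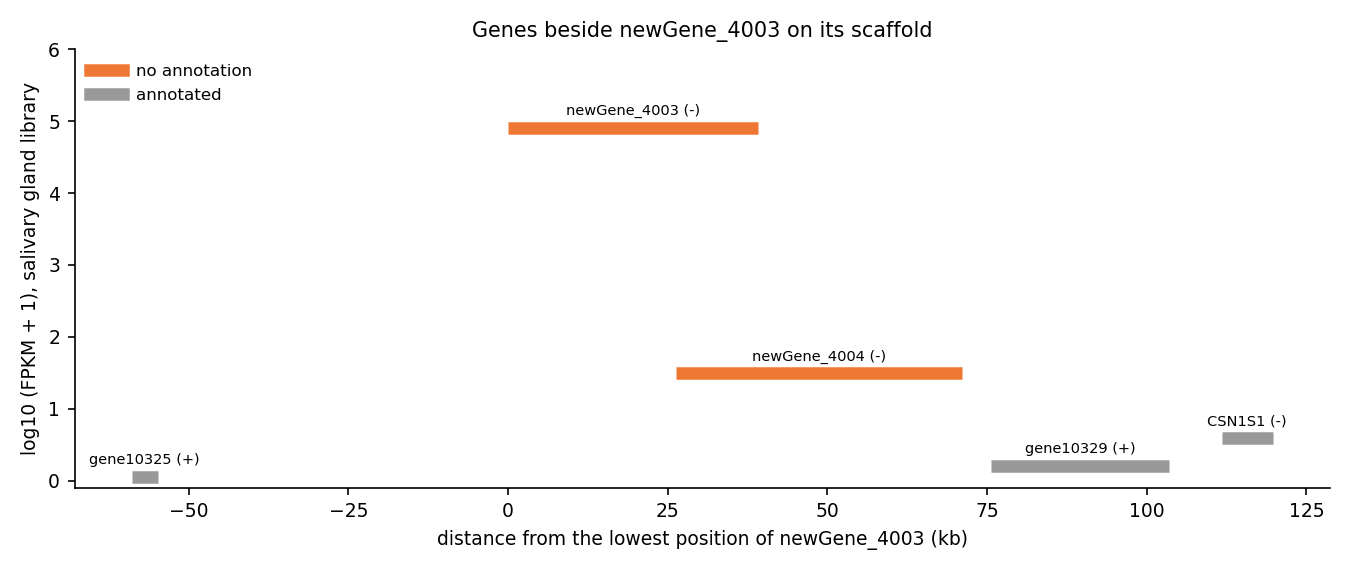
Genes on the scaffold of newGene_4003 by distance in kb from its lowest position (horizontal axis) and by log10 (FPKM + 1) in the salivary gland library (vertical axis); orange bars have no annotation, grey bars do, bar length is the locus and the sign gives the strand. The bar of newGene_4003 (FPKM 80008) stands far above newGene_4004 (29.97), beta-casein (gene10329, 0.606) and CSN1S1 (2.91).

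A further casein scaffold held a salivary gland member. The gene newGene_9802 (NW_016554715.1:142335-143775, minus strand, 787 bases) had 4 counts in small intestine, 1153 in salivary glands and 0 in liver, and its salivary gland FPKM was 162. The scaled salivary gland level was 256-fold that of the small intestine library and at least 579-fold higher than that of the liver library, with the limit of 3 counts per library in place of 0. The next gene on the high side, gene22848, lay 3363 bases away on the opposite strand and was led by the same library, with 0, 509 and 0 counts and an FPKM of 547. It has an annotation but no named product. On the low side CABS1 (gene22847), annotated as a calcium-binding spermatid protein, had no count in any library. Kappa-casein (CSN3, gene22846), on the same scaffold, had 1, 13 and 0. The salivary gland signal was thus listed at newGene_9802 and gene22848 and not at CABS1 or the casein.

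The other abundant salivary gland members included an overlapping pair. The genes newGene_5392 (NW_016537535.1:188885-192223, minus strand) and newGene_5390 (NW_016537535.1:189144-192223, plus strand) cover nearly the same bases on opposite strands. The former had 2019 counts in small intestine, 43733 in salivary glands and 14786 in liver, and the latter 1097, 21299 and 5318. The libraries were aligned as unstranded, so the reads of the pair cannot be told apart and the values of each are uncertain. The salivary gland level was 4.45-fold the liver level for newGene_5392 and 6.03-fold for newGene_5390, close to the 4-fold limit for a call. Their nearest annotated gene, at 13830 and 14089 bases, was newGene_5389, annotated as a hypothetical protein, with 62, 104 and 104 counts.

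Beside serpins, a family of secreted protease inhibitors, stood newGene_24. It had 8 counts in small intestine, 2111 in salivary glands and 37 in liver, and an FPKM of 1.59, 214 and 0.837. It lay 775 bases from gene88, annotated as alpha-1-antitrypsin-like (SERPINA1, the main blood inhibitor of neutrophil elastase), and 328 bases from gene91, annotated as serpin A11, and both are listed on the opposite strand. Serpin A11 was led by the salivary gland library as well, with 2, 660 and 52 counts, whereas gene88 was led by the liver library, with 200, 1982 and 12777. The member between them therefore had the library pattern of 1 neighbour and not of the other.

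Among the remaining salivary gland members, newGene_10061 overlapped gene23214 on the opposite strand, annotated in NR as the homeodomain protein IRX-2. The member had 5, 884 and 12 counts in intestine, salivary gland and liver and the homeodomain gene had 6, 905 and 5, which without strand cannot be told apart. The gene newGene_8394 had 11, 431 and 11 counts and lay 326 bases from CCSAP (gene20255), a protein of centrioles and cilia, which was led by the same library with 82, 576 and 41. The gene newGene_2431, alone on its scaffold, had 1, 724 and 0 counts. The reference gene gene17151 had 921, 4183 and 674 counts. Its scaled salivary gland level was 4.04-fold that of the small intestine library, so it only just passed the 4-fold limit.

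**Figure D4:**
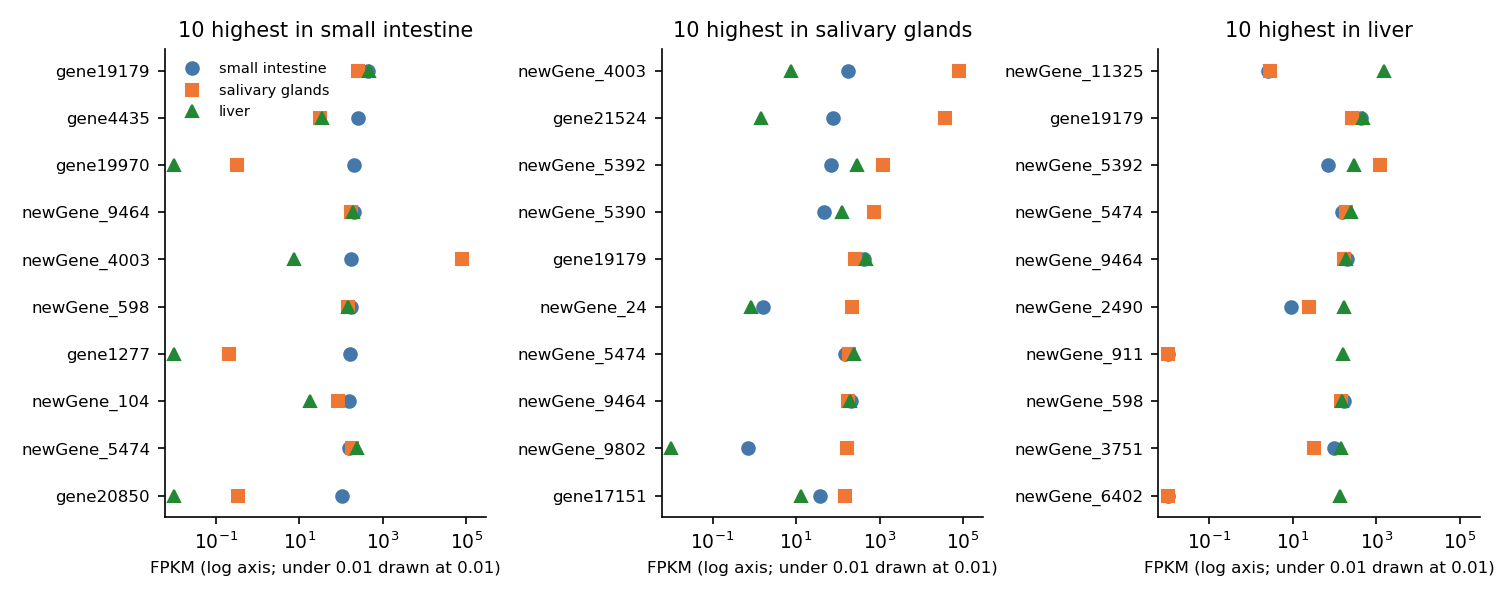
FPKM (log axis, values under 0.01 drawn at 0.01) of the 10 members of highest FPKM in the small intestine (left), salivary gland (middle) and liver (right) library, with blue circles for the small intestine, orange squares for the salivary gland and green triangles for the liver library. The symbols lie together for gene19179, newGene_9464, newGene_598 and newGene_5474, and far apart for newGene_4003, from 7.47 to 80008.

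Among members, newGene_11325 had the most counts and the highest FPKM in the liver library, where its FPKM had rank 37 of all genes. This gene (NW_016568657.1:1-3529, minus strand, 3178 bases) had 75 counts in small intestine, 106 in salivary glands and 83928 in liver, 0.576% of its counts (0.572 to 0.580%). The FPKM was 2.48, 2.86 and 1525, and the scaled liver level was 661-fold that of the small intestine library and 526-fold that of the salivary gland library. Its locus begins at the first base of its scaffold, where no annotated gene lies, and it overlaps newGene_11324, which had 1 count in each library. The liver share of all members without newGene_11325 was 1.18%.

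Several liver members had almost no reads elsewhere. The gene newGene_911 (NW_016528617.1:38194-45183, plus strand) had 1, 0 and 10237 counts in intestine, salivary gland and liver and a liver FPKM of 159. It overlaps newGene_913 on the opposite strand, which had 79, 45 and 2147. The gene newGene_1097 had 0, 0 and 5057 counts, at least 996-fold higher in the liver library than in small intestine and at least 1120-fold higher than in the salivary gland library. At 746 bases lay gene3088, annotated as cadherin-20, a cell adhesion protein, which the liver library also led, with 4, 8 and 1771 counts. The gene newGene_11942 had 0, 0 and 3983 counts and newGene_6402 had 0, 0 and 1460. The gene newGene_9471 had 0, 1 and 1678 and newGene_12532 had 13, 29 and 1697. The former overlaps newGene_9472 on the opposite strand, which had 0, 3 and 539. These members were thus read in the liver library and at or near 0 in the others, with the most reads elsewhere in newGene_12532 and newGene_913.

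Some of the named liver members lay near annotated genes led by, or highest in, the same library, and others did not. The gene newGene_7510 had 0, 0 and 1888 counts and lay 2992 bases from gene18545, annotated as UDP-glucuronosyltransferase 2B31-like, an enzyme that conjugates drugs and steroids, with 0, 0 and 628. The gene newGene_10725 had 0, 3 and 1619 counts and lay 10147 bases from the gene of C-reactive protein (CRP, gene24234), an acute phase protein made by hepatocytes, with 0, 5 and 112375 counts and a liver FPKM of 4844. The gene newGene_1618 had 170, 38 and 1594 counts and lay 184 bases before IGFBP4 (gene4492), a secreted protein that binds insulin-like growth factors, on the same strand. The order of the libraries was the same in the member and in IGFBP4, which had 3410, 680 and 28869 counts. In both, the liver library was highest and the salivary gland library lowest. By contrast, newGene_6402 lay 52797 bases from COG6 (gene16342), a Golgi protein that had 262, 235 and 605 counts and was led by no library, and newGene_911 lay 18808 bases from gene2492, annotated as a zinc finger protein, with 214, 136 and 817 and led by none. The gene newGene_3751, among the 10 members of highest liver FPKM, had 674, 283 and 1900 counts and was itself not led by a library. It lay 17344 bases from gene9708, annotated as kallikrein-1-like, with 12, 20 and 46, and 34349 bases from gene9707, annotated as a C-type lectin domain protein, which the liver library led with 3, 6 and 72.

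Not each close neighbour was alike. The gene newGene_2490 had 10, 34 and 360 counts and was led by the liver library, with loci led by the salivary gland library on both sides: gene6725, annotated as thioredoxin-like protein 4B, at 273 bases with 2, 15 and 2 counts, and gene6726, annotated as cadherin-3, at 3154 bases with 51, 390 and 2. The call of gene6725 rests on 15 fragments, where 14 is the fewest that can give one. The member newGene_2490 overlaps newGene_2491 on the opposite strand, with 24, 12 and 252 counts, so its values are uncertain. Haptoglobin (HP, gene25455), a plasma protein that binds free hemoglobin, had a liver FPKM of 25755, and newGene_11715, at 2914 bases, had 0, 21 and 0 counts and was led by the salivary gland library. Beside haptoglobin and IGFBP4, the annotated genes of highest FPKM with a member within 10 kb were 4 ribosomal protein genes, NNMT and CSRP1. Beside CSRP1 (gene16506), a LIM domain protein led by the small intestine library with an FPKM of 587, 111 and 35.97, newGene_6479 was led by the same library with 489, 110 and 100 counts, at 1759 bases. Beside NNMT (gene13519), an enzyme that methylates nicotinamide, with an FPKM of 511, 1103 and 1848, newGene_5215 had 1, 11 and 42 counts, at 353 bases. Beside RPS20 (gene8107), with an FPKM of 1908, 1537 and 1120 in intestine, salivary gland and liver, newGene_3054 had 1.12, 6.63 and 5.13. Beside RPS6 (gene11969), newGene_4560 had an FPKM of 7.83, 17.98 and 24.1, at a distance of 59 bases.

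Of the 10 most counted members led by the small intestine library, 6 carried a reference gene ID, against 2 in salivary glands and 0 in liver. Among all members led by these libraries, such an ID was carried by 14 of 117, 7 of 168 and 4 of 225. Among the 1550 members with at least 10 fragments in a library it was carried by 109. The gene gene11395 (NW_016535085.1:94447-100395, minus strand) had 1638 counts in small intestine, 39 in salivary glands and 0 in liver. It lay 1542 bases from BOK (gene11394), a relative of BCL2 that promotes cell death, on the same strand, which had 555, 167 and 17 counts. The order of the libraries was the same in both, although BOK did not pass the 4-fold limit. The gene gene13941 had 1263, 4 and 3 counts and gene20850 had 1223, 3 and 0. The annotated gene nearest to the former was gene13942, annotated as actin-related protein T2-like, at 21207 bases with no count in any library. On its other side, 99494 bases away, lay gene13938, annotated as PR domain zinc finger protein 16, a regulator of transcription, which the same library led with 169, 5 and 32 counts.

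Of the other small intestine members, gene1277 had 648, 1 and 0 counts and was alone on its scaffold. The gene gene19970 had 397, 1 and 0 and lay between an adipogenesis regulatory factor-like gene and GLUD1, a mitochondrial enzyme of glutamate breakdown, which was highest in the liver library at 821, 444 and 2213. The gene gene4435 had 1175, 199 and 309 counts and lay 1287 bases from PFDN1 (gene4434), a chaperone subunit that had 126, 239 and 179 and was not led by any library. An overlapping pair on opposite strands, newGene_251 with 1149, 215 and 1 counts and newGene_250 with 1137, 167 and 11, lay 3331 and 3417 bases from gene653, annotated as interleukin-17B, a cytokine, which the same library led with 94, 16 and 0. The gene newGene_38 had 600, 130 and 7 counts and overlapped gene112 on the same strand, annotated as angiotensin-converting enzyme-like, with 2667, 1043 and 75. Reads of these overlapping loci may be split between the genes, and their values are uncertain. The gene gene14188, with 500, 83 and 33 counts, lay 103 bases from gene14191, annotated as interferon-related developmental regulator 2, which had 623, 694 and 1216 and was led by no library.

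A few members were as abundant in every library. Of 469 members with at least 10 fragments in each library, 182 (38.8%) had scaled levels within 2-fold over all 3, beside 44.4% of annotated new genes and 47.6% of annotated reference genes. The gene gene19179 (NW_016544889.1:184985-188814, minus strand) had 1515 counts in small intestine, 1181 in salivary glands and 3084 in liver. Its FPKM of 433, 260 and 469 gave it ranks 1, 5 and 2 among members of those libraries, and its highest scaled level was 1.73-fold its lowest. The nearest annotated gene was PDE6D (gene19178), a carrier of prenylated proteins, at 12228 bases with 112, 307 and 196 counts. The gene newGene_5474 had an FPKM of 152, 187 and 248 and lay between TRNAU1AP, a factor of selenoprotein synthesis, at 7556 bases and PHACTR4, a regulator of phosphatase and actin, at 4298 bases, neither led by a library.

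Both other even members of this level overlapped a gene on the opposite strand. The gene newGene_598, whose end and frame are printed above, had 825, 834 and 1326 counts and an FPKM of 170, 144 and 150. It overlaps SGK3 (gene1716), a kinase of growth factor signalling, which had 155, 230 and 402. The gene newGene_9464 had 1074, 1163 and 1971 counts, and gene22198, annotated as a leucine-rich repeat protein (FAM211A), had 500, 502 and 861 on the other strand. In each of these pairs the member had more counts than its partner in every library. The reference genes gene1859, with 1493, 1324 and 2517 counts, and gene11623, with 251, 516 and 443, overlap MLLT11 and a low-density lipoprotein receptor-related gene. The latter (gene11622) had 2703, 5640 and 3352 counts, many more than the member.

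Members with a printed sequence but lower counts varied less clearly. The gene newGene_104 had 288, 187 and 87 counts and an FPKM of 155, 86.7 and 18.5, and overlaps newGene_105, also a member, on the opposite strand, with 5, 3 and 36. The gene newGene_596 had 55, 94 and 67 counts and lay 332 bases from gene1713, annotated as the deubiquitinating protein VCIP135, with 119, 163 and 476.

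In position, 620 members (29.1%) had no annotated gene on their scaffold, beside 47.7% of annotated new genes and 23.0% of annotated reference genes, and 486 of these were the only gene there, so part of the set cannot be placed beside a neighbour. The median distance to the nearest annotated gene was 3915 bases over the other 1513 members, beside 3308 in annotated new genes and 3500 in annotated reference genes that had a neighbour. Within 10 kb of an annotated gene lay 932 members (43.7%), against 33.7% of annotated new genes and 52.8% of annotated reference genes. The locus of 181 members (8.49%) overlapped that of an annotated gene, less often than in annotated new genes (11.5%) and annotated reference genes (11.2%), in 167 on opposite strands and in 14 on the same strand. Counting members and annotated genes alike, 359 members (16.8%) overlapped a gene on the opposite strand, beside 11.2% of annotated reference genes. This wider share was not computed for annotated new genes. Against annotated genes only, 168 of the 1459 annotated new genes (11.5%) overlapped, all on opposite strands. Members also overlapped each other in 114 pairs, 100 of them on opposite strands.

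Pairs of a member and its annotated neighbour often had their highest level in the same library. Of 679 pairs within 10 kb with at least 10 fragments in both genes, 377 (55.5%) were highest in the same library. The value was 58.7% for annotated new genes and 42.5% for annotated reference genes. It was 58.5% where loci overlapped, 51.3% up to 1000 bases and 58.1% from there to 10000 bases. It was 53.4% from there to 50000 bases (219 pairs) and 54.6% beyond (97 pairs). Annotated new genes gave 71.7%, 55.4%, 48.1%, 31.5% and 43.3% over the same ranges, above members only up to 1000 bases. Overlapping loci were 142 of the 679 member pairs and 152 of the 409 pairs of annotated new genes within 10 kb. The log2 ratios of the liver to the small intestine library had a Spearman rho of 0.52 over the 679 pairs, as a description across genes that share libraries and, where loci overlap, reads. In annotated new genes it was 0.57 and in annotated reference genes 0.23. By distance, the rho of members was 0.68 where loci overlapped, 0.52 up to 1000 bases, 0.46 from there to 10000 bases, 0.41 from there to 50000 bases and 0.56 beyond. That of annotated new genes was 0.82, 0.59, 0.25, 0.13 and 0.25.

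Among genes led by a library, the neighbours were led by the same library more often than annotated genes at large. Of the 54 members led by the small intestine library with an annotated neighbour within 10 kb that had enough fragments, 19 (35.2%) had a neighbour led by it, where 6.68% of all annotated genes with 10 fragments were. For the salivary gland library the count was 20 of 56 (35.7%), beside 2.75%, and for the liver library 33 of 63 (52.4%), beside 6.71%. A neighbour led by a different library was found for 1, 2 and 2 of these members. The same shares were 36.4%, 33.3% and 52.7% for annotated new genes and 18.8%, 17.3% and 24.3% for annotated reference genes. This measure pools overlapping loci, which may share reads, with loci up to 10 kb apart. Members were close to annotated new genes in it, and both stood above annotated reference genes.

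**Figure D5:**
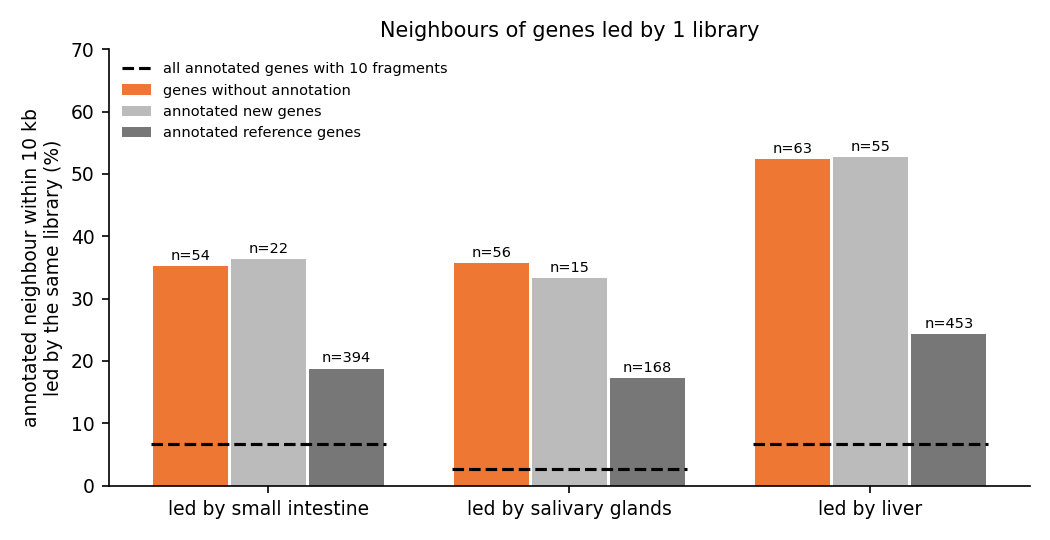
Percent of genes led by each library whose nearest annotated gene within 10 kb (overlapping loci included) was led by the same library, for genes without annotation (orange), annotated new genes (light grey) and annotated reference genes (dark grey), with the number of genes above each bar and bars starting at 0. Dashed lines give the share of all annotated genes with 10 fragments that were led by that library, 6.68%, 2.75% and 6.71%; the orange bars stand at 35.2%, 35.7% and 52.4%.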

How the data were processed

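Tissue RNA of 1 adult female was sequenced in pairs, with 1 library per tissue. The authors aligned cleaned reads with TopHat2 as unstranded and joined reads outside known genes into new genes with Cufflinks, which the study ran on a further liver data set as well. The deposited count is a whole number of fragments per gene. The deposited FPKM was made by the authors from fragments, transcript length and mapped fragments. A deposited normalized score, the count times 1 factor per library, was read only as a check. The genome build is not given in the sources used here.

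TMM factors (0.851, 1.17 and 1.00 for small intestine, salivary glands and liver) came from edgeR 4.0.16 in R 4.3.3. Everything else was computed in Python 3.11.15 with pandas 2.3.3, numpy 2.4.6, scipy 1.17.1, Biopython 1.88 and matplotlib 3.10.9. No test was run. Shares have Wilson intervals of 95%. The limit for a count of 0 was 3 counts, which is 0.295, 0.361 and 0.206 CPM. On simulated counts the 4-fold rule called all 200 genes changed 8-fold, with 2 other calls over 16107 genes, and 0 of 200 changed 2-fold. The changed genes were drawn above a minimum small intestine count and raised in the liver library only. All libraries were given the same profile, with counting noise alone and no scaling factors. Recovery among members with few fragments was therefore not covered. Distances are between loci on a scaffold, 0 where they overlap. Symbols come from the Swiss-Prot or KEGG entry and products from NR. RefSeq genes of another assembly (MJ_LKY) were used for gene order only. Sequences are from the study's supplementary sequences, of which part was used here.

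Members and lists were chosen with earlier results of these data known. Named are the 10 members with the highest FPKM and the 3 with the most counts in each library, the 3 reference genes among them with the highest FPKM, the 5 of highest FPKM with a sequence, the 10 most counted members led by each library, their nearest annotated genes, and the 5 annotated genes of highest FPKM in each library with a member within 10 kb. Further loci of these scaffolds, newGene_4004, newGene_11324, newGene_105, newGene_2491, newGene_9472, CSN1S1 and CSN3, were named after their values were seen. Marker lists not described in the report were plasma cell genes (4 of 6 found, summed FPKM 193, 1695 and 1315) and pancreatic acinar genes (5 of 7 found, 37.1, 12.3 and 22.7). Alternatives covered thresholds, scaling, distances and which genes count as members.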

Additional observations from a re-analysis of the deposited data

How the results depend on the processing

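With 1 library per tissue, no library could be left out, and no difference has a replicate check. No paired analysis was possible because each tissue has a single library. No call was possible for the 583 members with fewer than 10 fragments in every library, while 72.7% of members had at least 10, beside 74.5% of all genes. In all, 28 of 72 alternative values moved by more than counting error or 1.5 times, and the cause was not tested beyond what each alternative changes. The member share of counts kept its order, highest in the salivary gland library, in all alternatives but 1. Given as small intestine, salivary gland and liver, it was 0.690, 9.60 and 1.75%. It became 0.971, 20.9 and 1.48% of the summed FPKM, 0.502, 5.20 and 1.61% for new genes only, 0.670, 5.65 and 1.18% without the most counted member, and 0.654, 1.91 and 1.08% without the 2 most counted, an alternative chosen after seeing the data. Without the 10 most counted genes of each library it was 1.22, 1.60 and 2.09%, with the liver library highest. Members above an FPKM of 5 numbered 474 in any library and 229, 253 and 276 by library. Members led by the libraries, 117, 168 and 225, became 196, 306 and 434 at 2-fold and 39, 48 and 99 at 10-fold, and with at least 30 fragments 56 were led by the small intestine library and 97 by the salivary gland library. Scaling by library size only gave 81, 225 and 217, which puts the salivary gland library first. Within 1 kb of an annotated gene lay 521 members. The share of neighbours highest in the same library stayed between 53.8 and 59.1% under its 5 alternatives. Leaving out members that overlap a gene on the opposite strand, added after seeing the data, gave 96, 145 and 179 led.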

Other observations

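In the RefSeq genes of a later assembly of the species (MJ_LKY), used for the order of names only, 8 genes lie between the kappa-casein gene CSN3 and the beta-casein gene CSN2, 7 of them listed as long noncoding RNA and 1 as protein coding. Between CSN2 and CSN1S1 lies 1 gene, listed as protein coding. Between the gene of the salivary mucin MUC7 and CABS1 lie 4, of which 3 are listed as protein coding, and between CABS1 and CSN3 lie 2, both protein coding. No gene lies between TOP2A and IGFBP4, the loci that flank newGene_1618. Whether a listed gene is newGene_4003 or newGene_9802 was not tested, since the builds differ and no genome was used here.

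Members also lay close to each other: 419 were within 10 kb of another member, and 14 scaffolds held at least 5 of them, with a maximum of 8.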
